A study of Caenorhabditis elegans with 2 samples.

Results

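The 8 genes cct-1 to cct-8 of the nematode Caenorhabditis elegans encode the subunits of the cytosolic chaperonin CCT, also called TRiC, and were taken by name from a total of 19973 nuclear protein-coding genes. Their promoters were examined for peaks of NHR-237, a nuclear hormone receptor, mapped by chromatin immunoprecipitation and sequencing (ChIP-seq). Both samples came from strain OP228, which has the genotype unc-119(ed3) III; wgIs228, where wgIs228 is a transgene insertion that carries nhr-237 tagged with eGFP. They formed 1 group of 2 biological replicates of whole mixed-stage embryos, with the sexes pooled and the age unknown. Samples lacking the tag were not analysed here, and peak lists cannot show which embryonic cells contributed to a peak. The tagged protein comes from an inserted transgene, so its level may differ from that of the endogenous protein.

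CCT is built of stacked rings in which each gene contributes a different subunit, from CCT1 (alpha) encoded by cct-1 to CCT8 (theta) encoded by cct-8. It encloses newly made proteins and uses ATP to help them fold. Actins, tubulins and several beta-propeller proteins are its best known substrates, and the prefoldin complex and the Hsp70 system pass substrates to it. Nuclear hormone receptors bind DNA as transcription factors, and C. elegans has a large family of them.

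The authors deposited a peak list for each replicate, a list from both replicates together (the pooled list) and a list of peaks that passed the irreproducible discovery rate procedure (the IDR list), which keeps peaks that rank alike between lists. The IDR list held 1626 peaks, the pooled list 30000, the replicate 1 list 10872 and the replicate 2 list 30000. All but the IDR list include background regions. The signal value is the authors' own value per peak and was not scaled between lists, so it is read within a list. A gene was counted as having a peak when a summit fell in its promoter window, which reached from 500 bp before the 5′ end of any of its transcripts to 200 bp past it. Read depth is unknown. With 1 group of samples and no untagged group to compare it with, the results are counts and values with no test.

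A peak lay upstream of nearly every cct gene. An IDR summit was in the window of 7 of the 8 genes, cct-1, cct-2, cct-4, cct-5, cct-6, cct-7 and cct-8, and all 7 summits were upstream of the 5′ end. Over all nuclear protein-coding genes the share was 6.69%, or 1336 of 19973. The gene without an IDR peak was cct-3, which encodes the gamma subunit. The pooled list had a summit at the same 7 genes (33.1% of all genes), and so did the replicate 1 list (18.9% of all genes). The replicate 2 list had one at all 8 (32.7% of all genes). The 7 genes with an IDR peak lie on chromosomes II, III, IV and V.

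The DNA at 6 of these summits is shown because it carries the sequence motifs described further below. Each line gives 101 bases centred on the IDR summit, read 5′ to 3′ on the strand of the cct gene from RefSeq's WBcel235 sequence, the same build as ce11. Capitals mark matches to 13 fixed motifs on either strand. None of these stretches overlaps an annotated transcript.
cct-1 (chrII:8185145-8185245, plus strand): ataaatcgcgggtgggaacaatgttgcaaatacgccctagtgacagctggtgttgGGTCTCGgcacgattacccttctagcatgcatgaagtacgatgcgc
cct-2 (chrII:8927413-8927513, plus strand): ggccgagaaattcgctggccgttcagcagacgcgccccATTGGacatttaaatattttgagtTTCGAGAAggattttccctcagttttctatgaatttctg
cct-4 (chrII:8283378-8283478, plus strand): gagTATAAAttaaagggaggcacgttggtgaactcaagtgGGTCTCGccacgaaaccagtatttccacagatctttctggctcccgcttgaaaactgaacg
cct-5 (chrIII:4508513-4508613, minus strand): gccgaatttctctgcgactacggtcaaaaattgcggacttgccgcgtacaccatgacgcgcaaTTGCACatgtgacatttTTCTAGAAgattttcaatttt
cct-6 (chrIII:5855908-5856008, minus strand): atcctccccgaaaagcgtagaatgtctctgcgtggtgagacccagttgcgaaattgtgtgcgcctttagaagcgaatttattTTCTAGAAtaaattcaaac
cct-8 (chrIV:1094284-1094384, minus strand): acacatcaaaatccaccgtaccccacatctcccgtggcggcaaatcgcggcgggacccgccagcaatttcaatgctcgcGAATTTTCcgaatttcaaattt
The marked letters are GGTCTCG in cct-1 and cct-4, TTCGAGAA in cct-2, TTCTAGAA in both cct-5 and cct-6, and GAATTTTC in cct-8. The remaining capitals are ATTGG in cct-2, TATAAA in cct-4 and TTGCAC in cct-5. The marked letters at cct-8 lie outside its called IDR peak. The centre at cct-7 matched none of the 13 motifs.

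The highest signal was at cct-1 (WBGene00000377, chromosome II, 8185443 to 8187601, plus strand), which encodes the alpha subunit. Its IDR peak, at 8185127 to 8185277, had a signal of 296 and ranked 62 of 1626. The replicate 1 list gave 128 at rank 77 of 10872, and the replicate 2 list 168 at rank 47 of 30000. The peak was thus among the strongest in each list.

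The gene cct-8 (WBGene00021934, chromosome IV, 1087108 to 1093920, minus strand), for the theta subunit, was next. Its IDR peak at 1094324 to 1094425 had a signal of 207 and ranked 147. The replicate 1 signal was 84.5 at rank 263, and the replicate 2 signal was 126 at rank 100. The peaks at cct-1 and cct-8 were also the narrowest of the 7, at 151 bp and 102 bp. The other 5 had the list's median width of 396 bp, and 5.35% of all IDR peaks were narrower than that.

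Peaks of middle rank lay at cct-7, cct-6 and cct-5. The gene cct-7 (WBGene00020391, chromosome V, 1872246 to 1875505, plus strand), for the eta subunit, had an IDR signal of 165 at rank 300, with 102 at rank 153 in replicate 1 and 62.7 at rank 662 in replicate 2. The gene cct-6 (WBGene00000381, chromosome III, 5853530 to 5855687, minus strand), for the zeta subunit, had an IDR signal of 146 at rank 405, with 54.9 at rank 733 in replicate 1 and 90.2 at rank 278 in replicate 2. The gene cct-5 (WBGene00000380, chromosome III, 4499188 to 4508114, minus strand), for the epsilon subunit, had an IDR signal of 127 at rank 561, with 77.6 at rank 336 in replicate 1 and 54.5 at rank 915 in replicate 2. Each of the 3 stayed above the median of the IDR list, 106.

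The lowest IDR signals were at cct-2 and cct-4. The gene cct-2 (WBGene00000378, chromosome II, 8927741 to 8929815, plus strand), for the beta subunit, had an IDR signal of 89.6 at rank 1119, with 61.7 at rank 556 in replicate 1 and 31.1 at rank 2559 in replicate 2. The gene cct-4 (WBGene00000379, chromosome II, 8283667 to 8285711, plus strand), for the delta subunit, had an IDR signal of 83.5 at rank 1281, with 48.2 at rank 948 in replicate 1 and 37.2 at rank 1817 in replicate 2. Both were below the list's median but above its lowest value, 72.6. In replicate 2 their ranks lay outside the first 1626, the length of the IDR list.

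**Figure D1:**
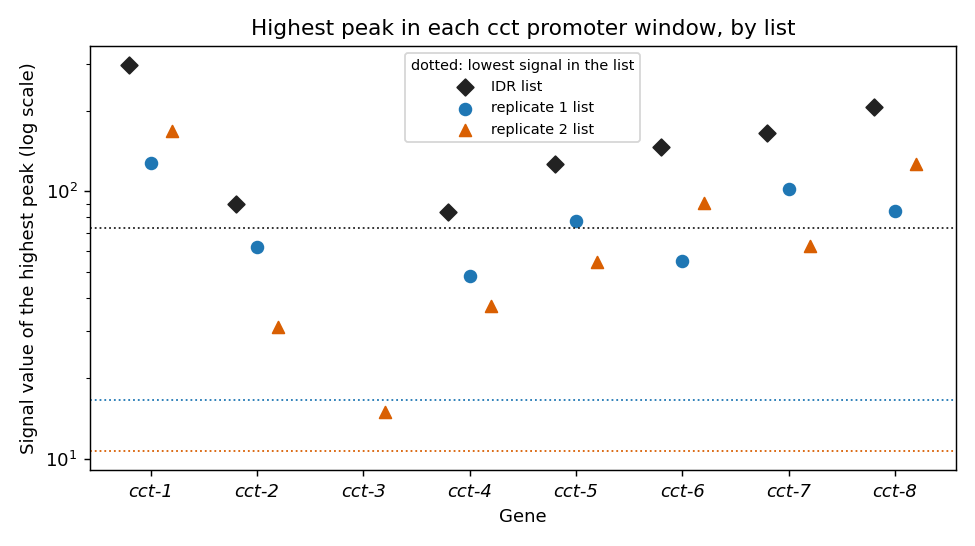
Signal value (log axis) of the highest peak in the promoter window of each cct gene, in the IDR, replicate 1 and replicate 2 lists. Points are single peaks, and dotted lines mark the lowest signal in each list. The gene cct-1 is highest in every list, and cct-3 has a point in the replicate 2 list alone, at 14.9, near the floor of 10.7.

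The median IDR signal over the 7 genes was 146, against 110 for the highest peak of each of the 1336 genes with an IDR summit. In the replicate 1 list the median over the cct genes was 77.6, against 27.2 over 3783 genes with a summit. In the replicate 2 list it was 58.6, against 19.5 over 6522 genes. These gene sets include weak peaks from background regions, whereas 7 of the 8 cct genes have IDR peaks, so the sets are not alike. Like peaks are the 1602 IDR peaks recovered by both libraries, with median signals of 52.3 (first replicate) and 57 (second replicate). Set against those, 77.6 was higher, while 58.6, which counts cct-3, was close to a typical IDR peak. The −log10 q value was at the top value of the IDR list, 2.38, for 5 genes, and was 2.31 at cct-2 and 2.18 at cct-4.

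The gene cct-3 (WBGene00018782, chromosome II, 2233540 to 2243539, plus strand) had a summit in its window in the replicate 2 list alone. That peak lay 121 bp upstream with a signal of 14.9, ranked 15914 of 30000, and had a −log10 q of 0.0618. The median signal of the replicate 2 list was 15.3, so the peak was no stronger than a typical entry of a list that includes background regions. In the pooled list the nearest summits were 894 bp upstream (signal 28.2) and 2724 bp downstream (signal 24.5), both close to the list's median of 26.8. A much weaker or absent peak therefore set cct-3 apart from the other 7 in every list.

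Only the cct-5 gene body held many further summits. None of the 8 gene bodies had an IDR summit. Between the ends of cct-5, a gene of 8927 bp, the pooled list had 8 summits, the replicate 1 list 4 and the replicate 2 list 7. The highest in the pooled list had a signal of 60.7 at rank 2163, which is below the IDR list's lowest value. The gene body of cct-3, 10000 bp long, held 2 pooled summits and that of cct-8 another 2, and the remaining 5 gene bodies held none in the pooled list.

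The replicates ranked the members in different orders. Ranks were compared among the 1602 IDR peaks that a peak of each replicate overlapped, so that both rankings had the same length. There cct-1 ranked 75 in replicate 1 and 45 in replicate 2, and cct-8 ranked 259 and 97. The gene cct-7 ranked 150 in replicate 1 and 650 in replicate 2, cct-5 ranked 331 and 885, and cct-6 ranked 719 and 269. The lowest members were cct-4, at 918 in replicate 1 and 1412 in replicate 2, and cct-2, at 547 and 1527. The rank gap between the replicates was 30 at cct-1, 162 at cct-8 and between 450 and 980 at the other 5, against a median of 255 over the 1602 peaks. The order of cct-5, cct-6 and cct-7 thus differed between the replicates, and only cct-1 and cct-8 stayed among the first 300 ranks in both.

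**Figure D2:**
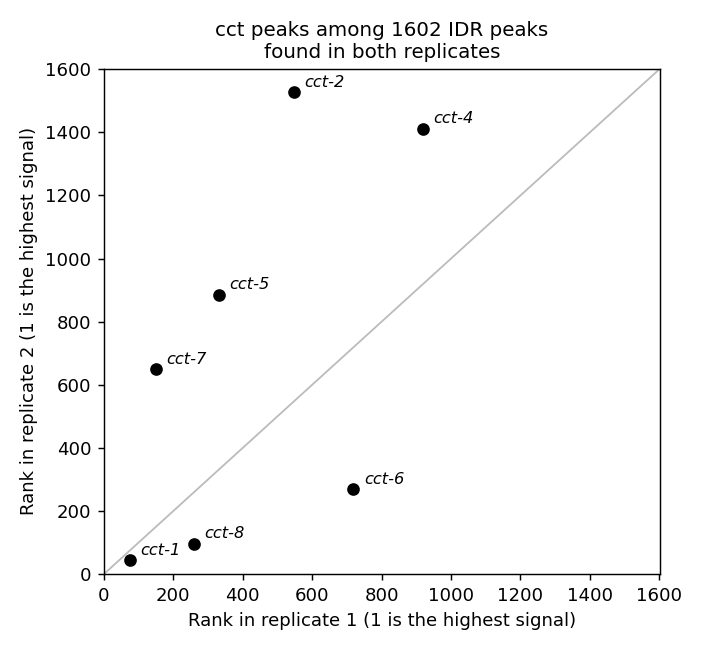
Rank by signal in replicate 1 (horizontal) and replicate 2 (vertical) of the 7 cct peaks, among the 1602 IDR peaks found in both replicates. The grey line marks equal ranks. The gene cct-1 lies next to the origin at ranks 75 and 45, while cct-2 lies farthest from the line at ranks 547 and 1527.

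The summit positions of the replicates were then compared. Between the replicate lists they differed by 2 bp at cct-2, 14 bp at cct-1, 25 bp at cct-6, 26 bp at cct-8, 33 bp at cct-7, 60 bp at cct-4 and 80 bp at cct-5. The median over the 1602 peaks was 24 bp, which 5 of the 7 gaps exceeded. The IDR signal was between 0.964 and 1 times the sum of the replicate signals at each of the 7 genes, and the median of this ratio over the 1602 peaks was 1. At 5 of the 7 genes the summit position was the peak's midpoint, as for 94.2% of all IDR peaks. There the summit and the peak limits are not separate measures of position, and how exact the positions are was not tested.

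All 7 IDR summits lay more than 200 bp upstream. Their distances from the cct 5′ end were 239 bp at cct-4, 248 bp at cct-1, 271 bp at cct-6, 278 bp at cct-2, 311 bp at cct-7, 414 bp at cct-8 and 449 bp at cct-5. The median was 278 bp, against 194 bp over the 1336 genes with an IDR summit, of which 94.6% had it upstream. The farthest summit inside the window was that of cct-5. The nearest pooled-list summit outside was 588 bp upstream of cct-2, with a signal of 41.4. The pooled list also had a second, weaker summit inside the window 33 bp upstream of cct-4 (signal 41.2) and 111 bp upstream of cct-7 (signal 50.6). Many C. elegans transcripts are trans-spliced, so an annotated 5′ end can lie downstream of the start of transcription. With a narrower window, reaching 300 bp up and 100 bp down, 4 of the 8 genes had an IDR summit (cct-1, cct-2, cct-4 and cct-6), against 5.11% of all genes.

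Most of the peaks lay between a cct gene and a divergent neighbour. For 6 of the 7 genes the IDR summit was also in the window of a protein-coding gene on the other strand, and for cct-2 it was in no other window. Among the 1336 genes with an IDR summit, 50.2% shared it with another protein-coding gene. At cct-1 the other gene was mig-5, which encodes a Dishevelled protein of Wnt signalling and whose 5′ end was 172 bp from the summit, against 248 bp for cct-1. At cct-4 it was nst-1, the gene for nucleostemin, a nucleolar GTPase, at 220 bp against 239 bp for cct-4. At cct-6 it was alh-9, of the aldehyde dehydrogenase family, at 60 bp against 271 bp for cct-6.

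The other 3 neighbours are known by sequence names. F25F2.1 was 292 bp from the summit, against 449 bp for cct-5. T10B5.4 was 128 bp from it, against 311 bp for cct-7, and the non-coding RNA gene T10B5.13 was 45 bp from the same summit. Y55F3AR.2 was 207 bp from it, against 414 bp for cct-8. In all 6 promoters the IDR summit was nearer to the neighbour than to the cct gene. The same held for the highest summit in the replicate 1 list, whereas in replicate 2 the summits at cct-4 (198 bp against 261 bp) and cct-5 (361 bp against 380 bp) were nearer to the cct gene. When each IDR summit was given to the nearest gene alone, within 2000 bp, cct-2 was the only cct gene left with a peak, or 1 of 8, against 6.62% of all genes. Which gene of a divergent promoter a peak belongs to was not tested.

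**Figure D3:**
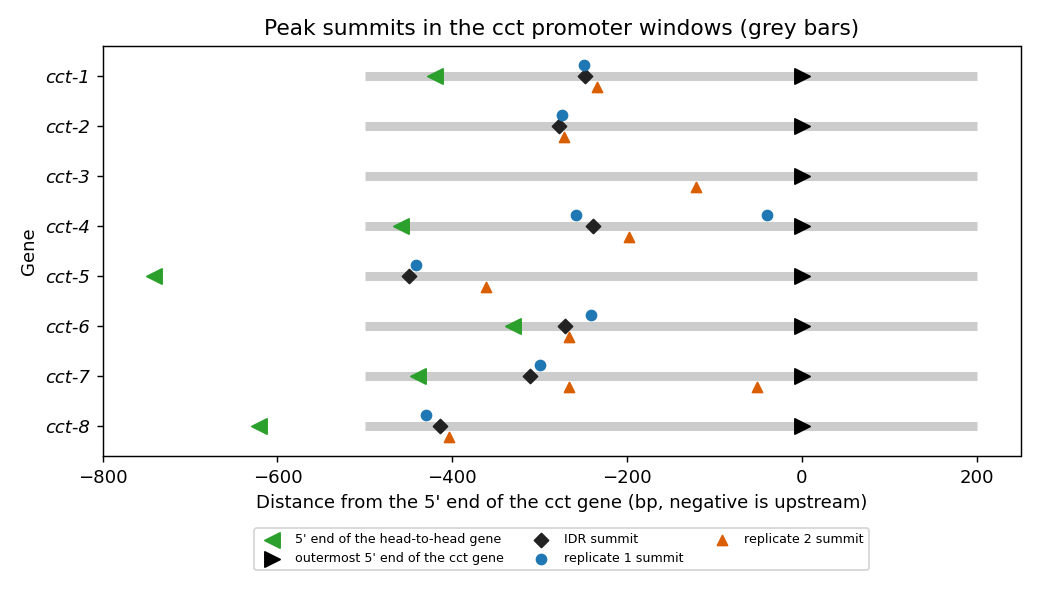
Distance in bp of peak summits from the 5′ end of each cct gene (black arrow at 0), in the IDR, replicate 1 and replicate 2 lists, with the 5′ end of the head-to-head neighbour (green arrow). Grey bars are the promoter windows. At 6 genes the IDR summit lies between the arrows and nearer to the green arrow, and cct-2 and cct-3 have no head-to-head neighbour within 1000 bp.

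Divergent neighbours were counted for all genes. Of the 8 genes, 6 had a protein-coding neighbour whose 5′ end lay within 1000 bp upstream on the other strand, at gaps of 331 bp (alh-9) to 741 bp (F25F2.1). Over all protein-coding genes the share was 18.7%, with a median gap of 476 bp. The comparison was chosen after the peaks were seen. Among the 3729 genes with such a neighbour, 20.1% had an IDR summit, and all 6 of the cct genes of this kind had one. Among the 16244 without it, 3.61% had an IDR summit, and 1 of 2 cct genes had one, namely cct-2. The upstream genes of cct-2 and cct-3, B0457.2 and F54A3.6, were on the other strand at 1189 bp and 1069 bp.

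The single replicates gave different counts. Among the 1626 peaks of highest signal in replicate 1 alone, 7 of the 8 genes had a summit, against 6.39% of all genes. In replicate 2 alone, 5 of the 8 had one, against 6.55% of all genes, and the genes lost were cct-2 and cct-4. These were also lost among the 813 IDR peaks of higher signal, where 5 of the 8 genes had a summit, against 3.53% of all genes.

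Motifs built from GAA units recurred at the cct summits. Heat shock factor binds arrays of GAA units in alternating orientation, and the motifs searched were the pairs TTCNNGAA and GAANNTTC, where N is any base. Each is its own reverse complement, and the pairs can overlap each other in a longer array. Within 50 bp of the summit TTCNNGAA occurred at 3 of 7 cct peaks, cct-2, cct-5 and cct-6, and at 3.75% of the 1013 IDR peaks in protein-coding promoters. GAANNTTC occurred at cct-8 alone, and at 5.63% of the 1013, but not when the window was centred on the peak's midpoint. In the sequences above, these pairs start 12 bp (cct-2), 30 bp (cct-5), 32 bp (cct-6) and 29 bp (cct-8) from the summit, on the side of the cct gene. At cct-8 the pair lay outside the called IDR peak, which ends on that side at 1094324, with the summit at 1094334. The wider peaks of the replicate lists at cct-8 cover it. Within 100 bp of the summit TTCNNGAA was at 4 of 7 cct peaks, against 10.7% of the 1013, and GAANNTTC at 2 of 7, against 11.8%. The letters TTCTAGAA, seen at cct-5 and cct-6, were at 7 of the 1013 peaks, or 0.691%, and these include the cct-5 and cct-6 peaks. That search was added after the sequences were seen.

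Both pair motifs were then counted in the promoters of all 8 genes. In promoters taken as 250 bp before to 50 bp after the outermost 5′ end, TTCNNGAA was in 5 of 8 promoters, against 18.9% of 19973. GAANNTTC was also in 5 of 8, against 18.5%. At least 1 of these pairs was in 7 of 8, against 32.5% of all promoters and 34.8% of the 1336 with an IDR summit. The exception was cct-2, whose pair started 266 bp upstream. The summit pairs of cct-5 (419 bp upstream) and cct-8 (385 bp upstream) also lay outside these promoters, so the pairs counted there are other copies. Within 500 bp upstream at least 1 pair was in 8 of 8, against 48.3% of all genes. The gene cct-3 had the pair GAAAATTC 22 bp upstream, although it had no IDR peak. No cct promoter held 3 alternating units in a row, against 1.96% of all promoters.

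Other fixed motifs were found at few of the centres. CGAGACC (reverse complement GGTCTCG) lay at the summits of cct-1 and cct-4, 2 of 7, against 10.1% of the 1013 promoter peaks. Its shorter form GAGACC, searched after the sequences were seen, also occurred at cct-6 (3 of 7, against 12.8%). CCAAT was found at 1 of 7 centres (15.6% of the 1013) and in 6 of 8 promoters (45.5% of all). TATAAA was found at 1 of 7 centres (5.43%), and TTGCAC likewise at 1 of 7 (8.88%). No cct centre matched the motif GCGTCTC (11.3% of the 1013), the motif GAGAGA (19.8%), the motif GGGCGG (7.90%), the motif TGATAA (2.96%), the motif CACGTG (2.96%) or the motif AAGTCA (2.37%). The core of many nuclear receptor sites, AGGTCA, was found at 0 of 7 centres (1.58%) and in 0 of 8 promoters (8.23%). Both strands were searched, and some of these motifs can overlap. A match describes the letters and does not show that a factor binds there. The GC content of the 7 centres was between 42.6% and 51.5%, around the median of 46.5% over the 1013.

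Related genes, among them partners and substrates of CCT and other chaperone genes, were described by the same count, from 7 lists. Of 62 symbols, 60 matched a gene, and 19 of the 60, or 31.7%, had an IDR summit, against 6.69% of all genes. The cytosolic Hsp70 and Hsp90 system gave 9 of the 19. Prefoldin, which hands actin and tubulin chains to CCT, had one at 2 of 6 genes. These were pfd-1 (signal 198, with 111 in replicate 1 and 93.7 in replicate 2) and pfd-5 (signal 95.8, with 47.1 and 54.9). The summit at pfd-1 was also in the windows of F01G4.6 and C08F8.13. The genes pfd-2, pfd-3, pfd-4 and pfd-6 had none, although pfd-6 had a signal of 42.6 in replicate 1, against 48.2 for cct-4, and 41.1 in replicate 2, against 37.2 for cct-4. The prefoldin count was 4 in the 1626 highest peaks of replicate 2 alone, 3 in those of replicate 1 alone, and 1 among the 813 IDR peaks of higher signal.

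The cytosolic Hsp70 and Hsp90 system had an IDR summit at 9 of 12 genes, against 6.69% of all genes. The highest were hsp-1, a constitutive Hsp70 (signal 373), hsp-90 (347), hsp-110, an exchange factor of Hsp70 (331), and bag-1, another exchange factor (291). The first 3 exceeded every cct gene, and bag-1 lay just below cct-1 (296). The summits at hsp-1, hsp-90 and hsp-110 were also in other genes' windows, and that at bag-1 was not. The genes cdc-37, chn-1 and unc-45 had none. The count was 6 with the narrower window, against 5.11% of all genes, and 6 with the nearest gene alone, against 6.62%. In this list 9 of 12 promoters held a GAANNTTC or TTCNNGAA pair, and in prefoldin 4 of 6 did. The share was 32.5% of all promoters and 34.8% of those with an IDR summit. The pair was not counted in the other related lists, so a link between pair and peak was not tested.

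Other heat shock genes, among them the inducible small heat shock genes, had an IDR summit at 1 of 12, namely hsp-3, an endoplasmic reticulum Hsp70 (signal 98.3). That share, 8.33%, was near the 6.69% of all genes. Of the mitochondrial chaperonin genes, Y22D7AL.10, a predicted co-chaperonin gene, had a summit 210 bp upstream with a signal of 223. The same IDR peak, ranked 115, lay 603 bp upstream of hsp-60, the chaperonin gene, and so outside its window.

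Some genes for the main substrates of CCT had an IDR peak and most did not. Over all nuclear protein-coding genes the share with an IDR summit was 6.69%. Among 16 tubulin genes, 2 (12.5%) had one, tba-2 (signal 303) and tbb-1 (148). Among 7 actin and actin-related genes, 3 had one, arx-2 (95.6), act-4 (83.4) and act-2 (82.1), while act-1, act-3, act-5 and arx-1 did not. These 3 summits were 397 bp (arx-2), 368 bp (act-4) and 432 bp (act-2) upstream, so the count was 0 with the narrower window, and it was also 0 among the 813 IDR peaks of higher signal. Among 5 beta-propeller genes rack-1 had one (91.1), and gpb-1, gpb-2, fzy-1 and fzr-1 did not. The summits at tbb-1, act-2 and rack-1 were also in other genes' windows. The difference between these counts and that of the cct genes was not tested.

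**Figure D4:**
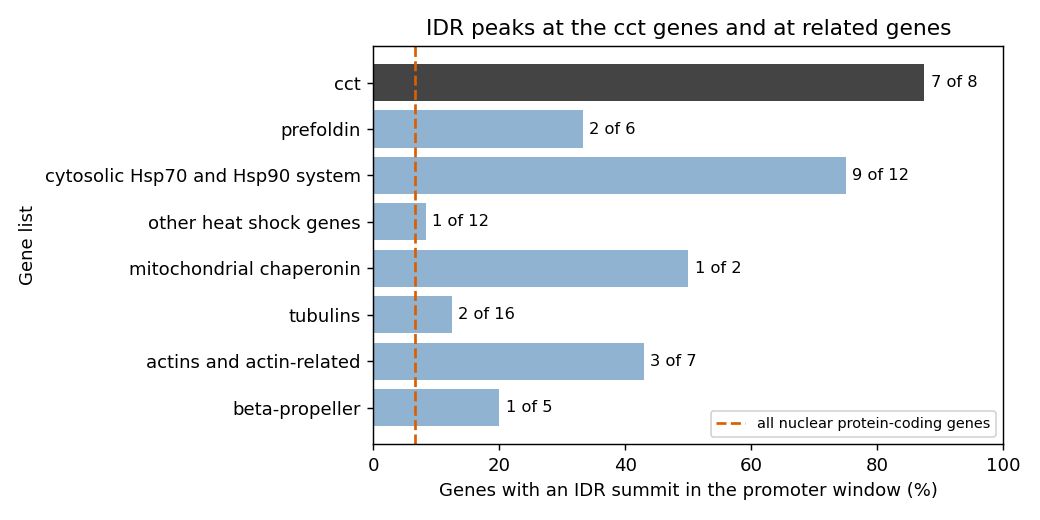
Share of genes (%) with an IDR summit in the promoter window, for the cct genes and 7 related lists, with counts beside the bars. The dashed line marks all nuclear protein-coding genes, at 6.69%. The cct genes (7 of 8) and the cytosolic Hsp70 and Hsp90 system (9 of 12) have the longest bars, and other heat shock genes (1 of 12) lie next to the line.

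The promoter peaks next in rank to the highest and lowest cct peaks were compared by the difference in rank. Over the IDR list, nipi-3, which encodes a Tribbles-family kinase, and W03C9.5 ranked 61 and 63, each 1 rank from cct-1. The serpin gene srp-7 at rank 1280 and the C-type lectin gene clec-126 at rank 1283 were 1 and 2 ranks from cct-4. Of the related lists, bag-1 at rank 66 was 4 ranks from cct-1 and act-4 at rank 1284 was 3 from cct-4. No list had a summit in the promoter window of nhr-237 itself.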

How the data were processed

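The 2 replicate libraries were analysed through 4 peak lists on build ce11. The authors made the replicate and pooled lists from alignments with a control alignment and derived the IDR list from these 3, according to their text listings. Aligner, peak caller, IDR threshold and antibody source: not given in the sources used here. Signal values and −log10 q values were deposited by the authors and used unchanged, and ranks are by signal within a list. The pooled list's −log10 column and the ce10 lists were not used.

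Summits were set against 5′ ends of Ensembl release 115 (WBcel235), and 1 summit could count for several genes. Members, lists, motifs and comparisons were chosen with earlier results of these data known. Named genes were the members, genes sharing their IDR peaks, up to 4 genes of highest signal with an IDR summit per related list and, in lists of 8 or fewer, those without, nhr-237, and promoter peaks next in rank to the highest and lowest member. B0457.2, F54A3.6, F01G4.6, C08F8.13, cdc-37, chn-1 and unc-45 were added after their values were seen. Alternatives were other windows, the peak midpoint, overlap, the outermost 5′ end, the nearest gene, stronger IDR peaks and each replicate alone. Assignment was checked on planted positions. Software was matplotlib 3.10.9, pandas 2.3.3, numpy 2.4.6 and scipy 1.17.1 under Python 3.11.15.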

Additional observations from a re-analysis of the deposited data

How the results depend on the processing

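The count of 7 of 8 cct genes with an IDR summit was 7 with a window of 1000 bp up to 500 bp down, the peak midpoint, any overlap of peak and window, or the outermost 5′ end. It was 4 with a window of 300 bp up to 100 bp down, 1 with the nearest gene and 5 among the 813 stronger IDR peaks. With 1 replicate left out it was between 5 and 7. The share of all protein-coding genes, 6.69%, was 5.11% with the narrower window, 8.16% with the wider window, 7.32% by overlap and 3.53% among the stronger peaks. The median cct signal, 146, was 89.6 with the nearest gene, where cct-2 alone was left, and between 77.6 and 90.2 with 1 replicate left out, on the unscaled values of a single library. The 19 related genes with a peak were 12 among the stronger IDR peaks, which are fewer by construction. No value reversed. Of the single lists, 53 of 63 recounts were within 1.5 times the reported count. Among the others, the prefoldin count of 2 was 4 without replicate 1, and the actin count of 3 was 0 with the narrower window. Other heat shock genes had 2 and beta-propeller genes 2 with the nearest gene, against 1 each, and the wider window gave 2 for beta-propeller genes and 2 for the mitochondrial chaperonin. Among the stronger IDR peaks the counts were 1 for prefoldin and 0 for actins, other heat shock and beta-propeller genes. No paired analysis was possible because the samples form a single group. Depth is unknown, so a missing peak, as at cct-3, is not shown to be absent binding.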
